A study of Mus musculus with 12 samples.

Results

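The 34 genes described here mark myeloid cells, the white blood cell lineage of monocytes, macrophages and dendritic cells, or encode receptors that these cells carry. They were chosen by name, and the symbol of each was found in a mouse kidney expression table of 45777 genes. By role they fall into 10 groups, made for this description: 3 general leukocyte genes, 2 receptor adaptors, 6 macrophage genes, 5 scavenger and resident macrophage genes, 4 monocyte genes, 4 dendritic cell genes, 4 Fc gamma receptors, 2 pattern receptors, 2 oxidase subunits, and the pair Cd84 and Lair1. Levels were measured by bulk RNA sequencing of whole kidney from wild type male C57BL/6 mice, in 12 libraries and 4 groups of 3. The normal group received no cisplatin and no vesicles. The other 3 groups all received cisplatin, a platinum drug that injures the renal tubule, at 9 mg/kg in 5 weekly intraperitoneal cycles. They then received 5 intravenous doses at 3-day intervals: PBS, the saline vehicle, in the PBS group, 200 µg of iMSC-EVs per dose in the EV200 group, and 400 µg in the EV400 group. iMSC-EVs are extracellular vesicles, membrane particles that cells release, and iMSC is the submitters' abbreviation for the source cells. Collection was 3 days after the last dose. No group had vesicles without cisplatin, and no age was given. The labels call the samples biological replicates without saying that each is another mouse, so p-values measure the spread between these samples, which may be partly technical.

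Resident macrophages live in the kidney from before birth or are renewed from blood, clear debris, and depend on the growth factor receptor encoded by Csf1r. Monocytes are recruited from blood through the chemokine receptor Ccr2 and can turn into macrophages in tissue. Dendritic cells take up antigen and present it to T cells, and depend on the receptor Flt3. Many receptors of these cells have no signalling tail of their own and use the adaptors Tyrobp and Fcer1g. In whole kidney RNA, more myeloid cells and more RNA of a gene per cell cannot be told apart.

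The libraries held 46.6 to 62.09 M counts. Levels below are in CPM, counts relative to the library total in M, after TMM scaling. Every library carried kidney markers: summed CPM of 8 tubule and podocyte markers was 12900 to 13300 in the normal group and 9100 to 12700 in the PBS group. Library PBS 3 carried adipocyte markers, which summed to 18.7 CPM against 0.622 CPM at most in the 11 other libraries. On the first principal component, which held 57.8% of the variance, PBS 2 lay furthest of all at 54.4, against 6 and 21.6 for PBS 1 and PBS 3 and -24.1 to -20.3 for the normal libraries. EV200 3 lay at 33.4 against -12 and -7.6 for its group, and EV400 3 at -27.4 against -2.7 and 1.4. The number of members passing the test is therefore also given without PBS 3, EV200 3 and EV400 3 together, a fit that keeps PBS 2, and without PBS 2 alone.

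After cisplatin and PBS, nearly all of these myeloid genes had a higher fitted level than in normal kidney. Of the 34 members, 33 passed the filter on low counts, and the fitted difference was positive in 32 of these. The median log2 fold change over the 33 members was 1.74, and over all 18730 genes tested it was 0. In the quasi-likelihood fit of edgeR, with p values adjusted over all genes by the method of Benjamini and Hochberg, 4 members rose past the threshold of adjusted p under 0.05, and none fell. These were Siglec1, Cd84, Cd68 and Ncf1. Of all genes tested, 2.74% were called in either direction and 1.84% were called higher. At an unadjusted p under 0.05, 30 members were higher, against 17% of all genes. In 29 members every PBS library lay above every normal library, as did 20.3% of all genes. The 26 other members that were higher at the unadjusted threshold had adjusted p values of 0.0533 to 0.103. Csf1r, Fcgr2b and Fcgr4 did not pass at either threshold.

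**Figure D1:**
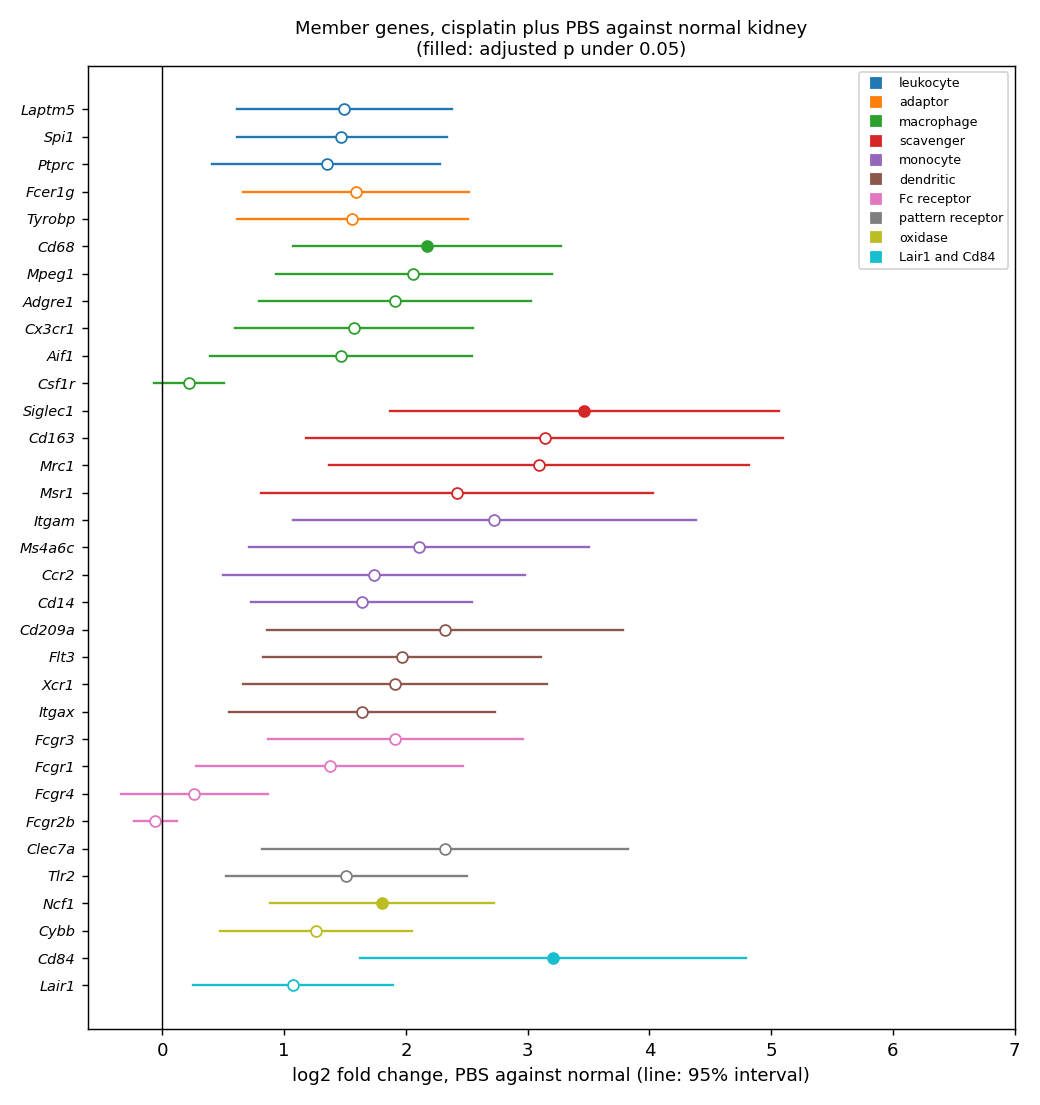
Log2 fold change of the 33 tested members in the PBS group against the normal group, with 95% intervals, coloured by role. Filled points mark the 4 members with an adjusted p under 0.05. Siglec1, Cd84, Cd163 and Mrc1 lie furthest right, and the intervals of Csf1r, Fcgr4 and Fcgr2b include 0.

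The number of members called in this comparison depended strongly on the model and on single libraries. It was 29 with DESeq2, which called 10% of its 18280 genes with an adjusted p higher, and 30 with limma-voom, which called 17.8% of genes higher. A fit of the 2 groups alone called 25 members and 6.32% of genes higher. Without a filter on low counts 2 members and 0.756% of genes were called higher. Leaving out 1 library gave 27 members without PBS 1 (7.72% of genes higher), 29 without EV200 3 (8.71%), 13 without EV200 1 (3.55%) and 13 without EV400 3 (3.17%). It gave 0 members without any 1 of the 3 normal libraries, without PBS 2, PBS 3, EV200 2, EV400 1 or EV400 2. Few genes of any kind were called in these fits. Without any 1 normal library, 0 genes were called in either direction. The number was 1 without PBS 2, 79 without PBS 3, 80 without EV200 2, 31 without EV400 1 and 6 without EV400 2. Without PBS 3, EV200 3 and EV400 3 together, 27 members were called, all higher, as were 8.15% of genes. The median over members stayed between 1.39, without PBS 2, and 2.03, without PBS 1, when single libraries were left out.

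Among the general leukocyte genes, Laptm5 encodes a lysosomal membrane protein of blood cells. Its levels were 14.5, 9.96 and 9.8 CPM in normal libraries 1 to 3, 22.6, 43.3 and 30.3 CPM in PBS, 13.5, 14.7 and 36.4 CPM in EV200, and 17.6, 19.9 and 8.62 CPM in EV400. Ptprc, which encodes the pan-leukocyte surface phosphatase CD45, read 15.6, 10.2 and 11.3 CPM in normal, 19.4, 47 and 28.2 CPM in PBS, 12.1, 15.1 and 34.6 CPM in EV200, and 17.1, 21.3 and 9.23 CPM in EV400. For both genes the 3 PBS libraries lay above the 3 normal libraries, with PBS 2 the highest of its group. The group also holds Spi1, which encodes PU.1, the transcription factor of myeloid commitment. It averaged 1.92 ± 0.502 CPM in the normal group and 5.34 ± 1.27 CPM in the PBS group (SD, n = 3). Log2 fold changes of the 3 genes, PBS against normal, were 1.35 to 1.49 with adjusted p of 0.0584 to 0.0767 by edgeR.

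The adaptors carry the activating signal of many myeloid receptors through tyrosine motifs. Tyrobp encodes DAP12, and was at 5.58, 4.29 and 3.67 CPM in normal, 10.3, 17.6 and 12 CPM in PBS, 5.12, 7.76 and 19.9 CPM in EV200, and 8.76, 8.19 and 4.5 CPM in EV400. The PBS and normal libraries did not overlap, and EV200 3 was the highest library of all. Fcer1g, the common gamma chain that Fc receptors share, averaged 3.65 ± 1.4 CPM in normal and 11 ± 3.96 CPM in PBS libraries (SD, n = 3). Both adaptors differed between PBS and normal by about the same amount, with log2 fold changes of 1.56 ± 0.44 and 1.59 ± 0.43 (SE), and neither passed the adjusted threshold.

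Of the 6 macrophage genes, Cd68 rose, and Csf1r had the smallest difference. Cd68 (gene 12514, GRCm38 chromosome 11, 69664213 to 69666170, minus strand) encodes a lysosomal glycoprotein of phagocytes. Its levels were 3.11, 2.28 and 3.36 CPM in normal, 9.39, 18 and 12 CPM in PBS, 4.69, 5.37 and 14.2 CPM in EV200, and 9.53, 8.06 and 2.57 CPM in EV400. Every PBS library exceeded every normal library, and EV400 3 lay within the normal range. The log2 fold change from normal to PBS was 2.17 ± 0.50 (SE), a 4.5-fold rise with an adjusted p of 0.0471 by edgeR, and the call was lost without several single libraries, at an adjusted p of 0.158 without PBS 2. Csf1r, the receptor for CSF1 and IL-34, read 75.5, 88.3 and 76.8 CPM in normal, 89, 105.3 and 85.8 CPM in PBS, 80.5, 80.6 and 105.9 CPM in EV200, and 71.2, 84.5 and 64.9 CPM in EV400. These ranges overlapped, and the log2 fold change was 0.22 with a 95% interval of -0.07 to 0.51 and an adjusted p of 0.283. Exons of Csf1r overlap those of the antisense gene Hmgxb3, which stood at 29.6 to 39.8 CPM across libraries, and the strand setting of the counting is not known from the sources used.

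The 4 other macrophage genes were fitted higher in PBS than in normal, by 1.47 to 2.06 on the log2 scale. None of these passed the adjusted threshold, and for each the PBS and normal libraries did not overlap. Mpeg1 encodes perforin-2, a pore-forming protein of phagocytes, and averaged 18.7 ± 5.44 CPM in normal and 78.2 ± 38.4 CPM in PBS (SD, n = 3), with an adjusted p of 0.0541. Adgre1 encodes F4/80, the standard surface marker of mouse macrophages, and averaged 4.57 ± 1.72 CPM and 17.2 ± 6.9 CPM in the same groups. Cx3cr1, the fractalkine receptor, is abundant on kidney resident macrophages and averaged 5.7 ± 1.55 CPM and 17 ± 4.63 CPM. Aif1, which encodes the actin-binding protein IBA1, averaged 1.43 ± 0.721 CPM and 3.94 ± 1.36 CPM.

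Scavenger and resident macrophage genes had the largest median difference between PBS and normal of the 10 role groups, a log2 fold change of 3.12 over the 4 tested. Siglec1 (gene 20612, chromosome 2, 131067801 to 131086778, minus strand) encodes CD169, a sialic acid binding receptor of tissue macrophages. It was at 1.02, 0.411 and 0.644 CPM in normal, 4.72, 11.1 and 7.08 CPM in PBS, 2.04, 1.61 and 6.56 CPM in EV200, and 2.88, 3.03 and 0.394 CPM in EV400. All PBS libraries lay above all normal libraries, and all EV200 libraries did too. The log2 fold change from normal to PBS was 3.46 ± 0.73 (SE, 95% interval 1.87 to 5.06), an 11-fold rise with an adjusted p of 0.0436 by edgeR. The value was 3.1 without PBS 2, with an adjusted p of 0.138 by edgeR. As for Cd68, the call was lost without several single libraries.

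Mrc1 encodes the mannose receptor CD206. Its levels were 3.55, 2.03 and 2.74 CPM in normal, 11.1, 43.5 and 16.4 CPM in PBS, 4.4, 6.04 and 27.4 CPM in EV200, and 8.53, 11.3 and 2.11 CPM in EV400. The normal libraries were tight and the PBS libraries were not, with PBS 2 far above the other two. The log2 fold change was 3.09 ± 0.79 (SE) and the adjusted p 0.0543. Cd163, the haemoglobin-haptoglobin scavenger receptor, was near the limit of these libraries at 0.12, 0.226 and 0 CPM in normal, 0.394, 1.26 and 1.44 CPM in PBS, 0.295, 0.351 and 1.06 CPM in EV200, and 0.48, 0.518 and 0.0927 CPM in EV400. Its 95% interval ran from 1.18 to 5.1 on the log2 scale, with an adjusted p of 0.0629. Msr1, the class A scavenger receptor, was at 0.319, 0.739 and 0.228 CPM in normal, 1.18, 4.01 and 1.69 CPM in PBS, 0.541, 0.573 and 2.84 CPM in EV200, and 1.4, 1.08 and 0.51 CPM in EV400. PBS and normal libraries did not overlap, and the adjusted p was 0.0699. Timd4, a phosphatidylserine receptor of long-lived resident macrophages, failed the filter: it had 10 counts in PBS 2, 12 in PBS 3, 8 in EV400 1 and 0 in the 9 other libraries. A count of 0 allows up to 3 counts per library, so its level was not measurable at this depth.

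**Figure D2:**
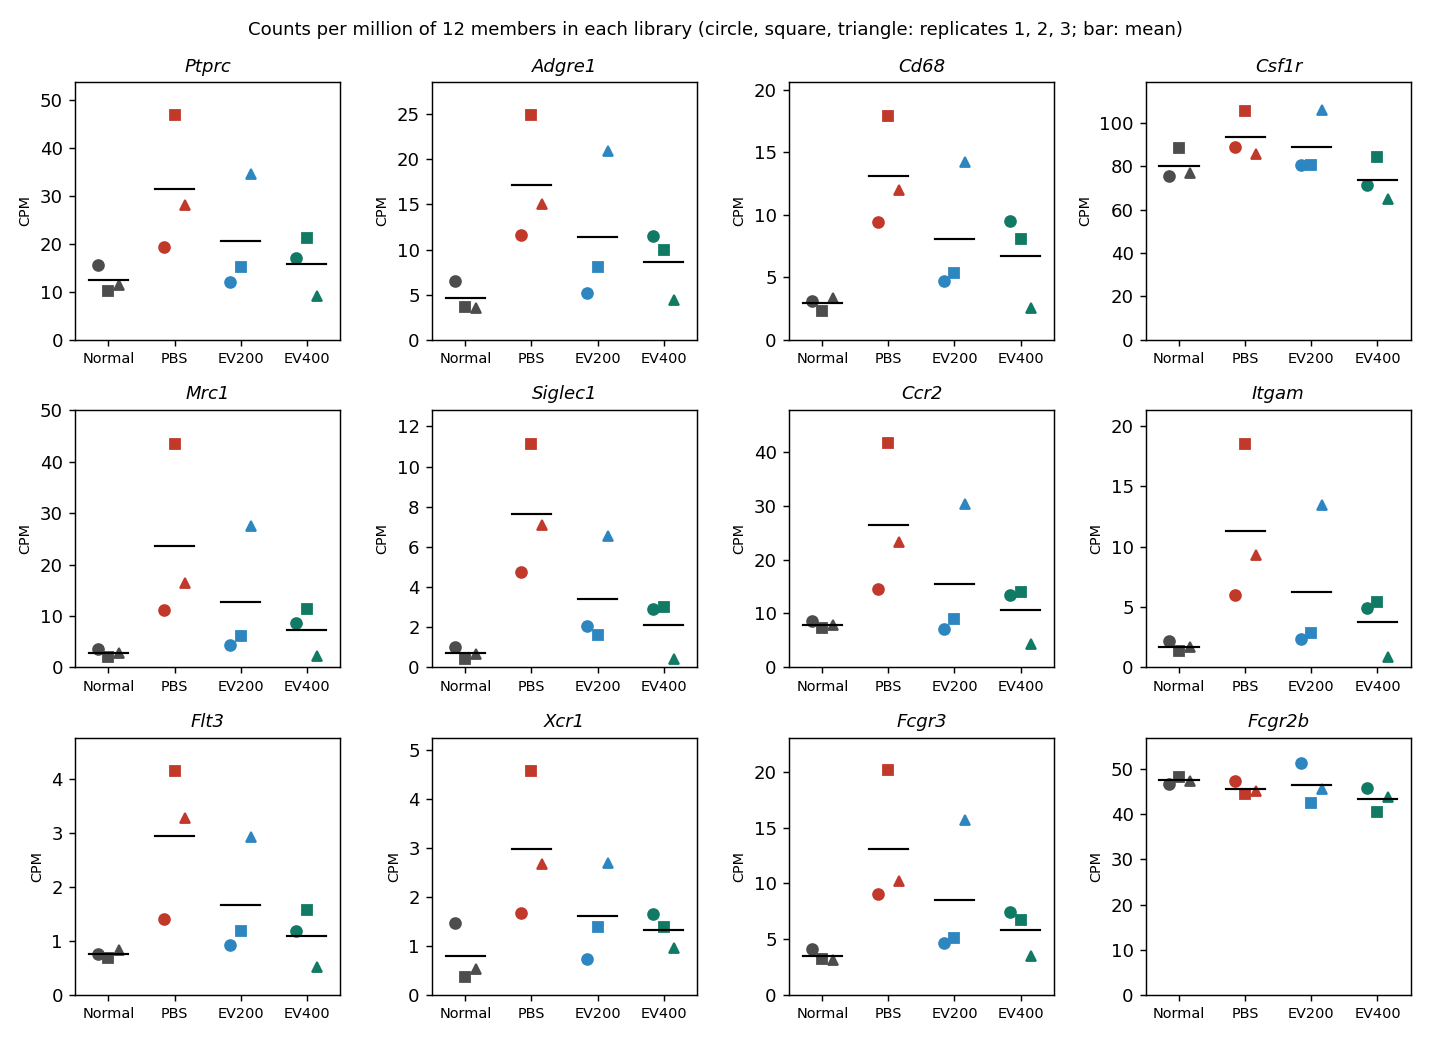
Levels in CPM of 12 members in each library, with 1 panel per gene, a vertical axis starting at 0, and bars at the group means. In most panels PBS 2 and EV200 3 are the high points, while Csf1r and Fcgr2b stay nearly level across the 4 groups.

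The 4 monocyte genes were all fitted higher in PBS than in normal, by 1.64 to 2.72 on the log2 scale, and none passed the adjusted threshold. Ccr2, the receptor that draws inflammatory monocytes out of the marrow, was at 8.67, 7.33 and 7.83 CPM in normal, 14.6, 41.6 and 23.3 CPM in PBS, 7.19, 8.94 and 30.3 CPM in EV200, and 13.4, 14 and 4.27 CPM in EV400. EV200 1 and EV400 3 lay below the lowest normal library. Its log2 fold change, PBS against normal, was 1.74 ± 0.57 (SE) with an adjusted p of 0.0817 by edgeR. Itgam, the integrin alpha M chain known as CD11b, was at 2.15, 1.33 and 1.64 CPM in normal, 5.97, 18.5 and 9.31 CPM in PBS, 2.38, 2.88 and 13.4 CPM in EV200, and 4.9, 5.43 and 0.835 CPM in EV400. Its PBS and normal libraries did not overlap, with a log2 fold change of 2.72 ± 0.76 (SE) and an adjusted p of 0.0604. Of its 101-base transcript windows, 64.3% also occur in Gm49368, an annotated gene on the same strand that has no row of its own in the table used here.

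Cd14 is the lipopolysaccharide co-receptor. It read 1.99, 2.2 and 2.47 CPM in normal, 5.22, 9.16 and 6.31 CPM in PBS, 3.41, 3.92 and 11.2 CPM in EV200, and 4.88, 5.62 and 3.15 CPM in EV400. All 9 cisplatin libraries lay above all 3 normal libraries, the least of them EV400 3. The adjusted p was 0.0543 for PBS, 0.18 for EV200 and 0.672 for EV400 against normal, with log2 fold changes of 1.64, 1.48 and 1.04. Ms4a6c, a membrane protein gene of monocytes, was at 2.23, 0.739 and 1.33 CPM in normal, 2.84, 10.5 and 5.17 CPM in PBS, 2.59, 2.31 and 8.6 CPM in EV200, and 3.96, 2.82 and 1.3 CPM in EV400. Its lowest PBS library lay only just above its highest normal library, and the adjusted p was 0.0699.

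The 4 dendritic cell genes were fitted higher in PBS by 1.64 to 2.32 on the log2 scale, a range close to that of the monocyte genes, and none was called. Itgax encodes the integrin CD11c, shared by dendritic cells and kidney macrophages. It was at 5.48, 4.33 and 4.15 CPM in normal, 9.61, 20.6 and 13.4 CPM in PBS, 6.02, 6.3 and 16.3 CPM in EV200, and 8.93, 10.3 and 2.48 CPM in EV400. The PBS libraries were above all normal libraries and the adjusted p was 0.0701. Flt3, the growth factor receptor of dendritic cell precursors, was at 0.757, 0.677 and 0.83 CPM in normal, 1.41, 4.16 and 3.28 CPM in PBS, 0.919, 1.18 and 2.92 CPM in EV200, and 1.19, 1.58 and 0.51 CPM in EV400. Its log2 fold change was 1.97 ± 0.52 (SE) and its adjusted p 0.0568. Xcr1, the chemokine receptor of cross-presenting type 1 dendritic cells, was at 1.48, 0.37 and 0.519 CPM in normal, 1.68, 4.56 and 2.66 CPM in PBS, 0.738, 1.39 and 2.7 CPM in EV200, and 1.65, 1.39 and 0.951 CPM in EV400. Normal 1 lay only just under PBS 1 for this gene, and the adjusted p was 0.0684. Cd209a, a C-type lectin of monocyte-derived and type 2 dendritic cells, was at 0.777, 1.27 and 0.747 CPM in normal, 3.03, 6.47 and 4.49 CPM in PBS, 1.74, 1.18 and 7.39 CPM in EV200, and 2.69, 3.63 and 0.927 CPM in EV400. It had the largest difference of the 4, at 2.32 ± 0.67 (SE), with an adjusted p of 0.063.

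**Figure D3:**
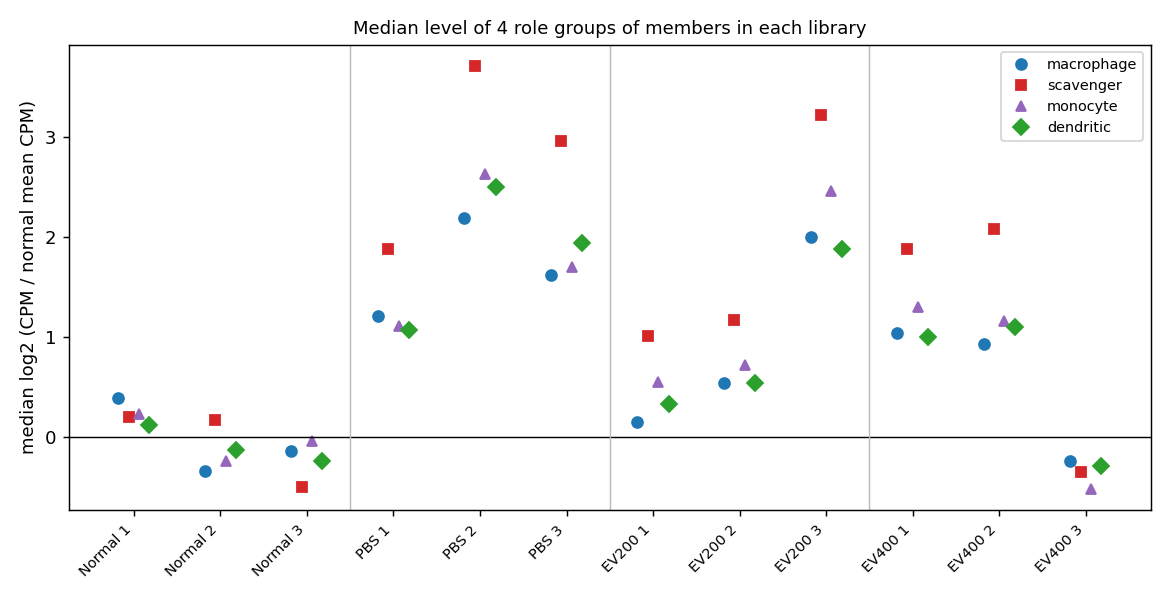
Median over members of log2 CPM relative to the normal mean, for the macrophage, scavenger, monocyte and dendritic groups in each of the 12 libraries. The 4 groups move together from library to library, the scavenger genes lie highest in all PBS and EV200 libraries and in EV400 1 and 2, and EV400 3 lies below the normal mean.

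Fc gamma receptors bind IgG. Their fitted log2 fold changes, PBS against normal, ran from -0.06 to 1.91 with none called, and differences between the receptors were not tested. Fcgr1, Fcgr3 and Fcgr4 encode activating receptors and Fcgr2b the inhibitory one. Fcgr2b was at 46.8, 48.3 and 47.5 CPM in normal, 47.4, 44.5 and 45.3 CPM in PBS, 51.3, 42.4 and 45.5 CPM in EV200, and 45.9, 40.6 and 43.9 CPM in EV400. Its PBS and normal libraries overlapped, with a log2 fold change of -0.06, a 95% interval of -0.23 to 0.12 and an adjusted p of 0.667. Fcgr2b is also expressed by B cells and by the endothelium of some organs. Summed CPM of 4 endothelial markers was 225 to 241 in normal and 194 to 242 in PBS libraries. Of the 4, Kdr was lower at the unadjusted threshold, with a log2 fold change of -0.37. The part of these cells in the level of Fcgr2b was not tested. Fcgr3 and Fcgr4 are given in full because of their values. Fcgr3 was at 4.15, 3.18 and 3.14 CPM in normal, 9.03, 20.1 and 10.2 CPM in PBS, 4.64, 5.06 and 15.7 CPM in EV200, and 7.43, 6.67 and 3.48 CPM in EV400. Its log2 fold change was 1.91 ± 0.48 (SE), with an adjusted p of 0.0533. Fcgr4 was at 3.77, 1.93 and 2.03 CPM in normal, 2.51, 3.19 and 3.58 CPM in PBS, 3.13, 2.92 and 4.19 CPM in EV200, and 2.63, 3.15 and 2.02 CPM in EV400. These libraries overlapped, and the 95% interval of its log2 fold change, PBS against normal, was -0.34 to 0.87. Fcgr1, the high-affinity receptor CD64, averaged 1.38 ± 0.499 CPM in normal and 3.59 ± 0.997 CPM in PBS (SD, n = 3), with an adjusted p of 0.103. Fcgr3 shares 2.42% of its 101-base transcript windows with Fcgr2b, so a small part of their reads may be exchanged.

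Pattern receptors recognise microbial and damaged-cell molecules. Clec7a encodes dectin-1, a beta-glucan receptor, and was at 3.07, 1.81 and 2.16 CPM in normal, 6.32, 18.3 and 10.5 CPM in PBS, 2.69, 3.45 and 13.8 CPM in EV200, and 7.74, 6.69 and 1.51 CPM in EV400. The PBS and normal libraries did not overlap, and EV400 3 was the lowest of all 12. Clec7a had a log2 fold change of 2.32 ± 0.69 (SE) and an adjusted p of 0.0671. Tlr2, which recognises bacterial lipopeptides, averaged 2.05 ± 0.124 CPM in normal and 5.81 ± 2.37 CPM in PBS (SD, n = 3), with an adjusted p of 0.0685.

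Both phagocyte oxidase subunits were fitted higher, and Ncf1 passed the test. Ncf1 (gene 17969, chromosome 5, 134220053 to 134229628, minus strand) encodes p47-phox, the cytosolic organiser of the enzyme. It was at 2.47, 1.52 and 1.62 CPM in normal, 3.71, 9.5 and 6.31 CPM in PBS, 3.23, 3.08 and 7.35 CPM in EV200, and 3.03, 3.4 and 1.69 CPM in EV400. PBS and EV200 libraries were all above the normal ones. The log2 fold change from normal to PBS was 1.8 ± 0.42 (SE) and the adjusted p 0.0474 by edgeR. Without PBS 2 the fitted value was 1.43 and the adjusted p 0.165, and the call was also lost without several other single libraries. Exons of Ncf1 overlap the antisense gene Gtf2ird2, which was at 6.03 to 9.19 CPM. Cybb, the membrane-bound catalytic subunit gp91-phox, was at 12.4, 7.9 and 8.62 CPM in normal, 15.5, 34.1 and 19.4 CPM in PBS, 9.21, 12.2 and 21.6 CPM in EV200, and 14.4, 14.8 and 8.04 CPM in EV400. Its adjusted p was 0.0631.

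Cd84 (gene 12523, chromosome 1, 171839697 to 171890718, plus strand) encodes a self-binding receptor of the SLAM family, and Lair1 an inhibitory receptor for collagen. Cd84 was at 0.698, 0.616 and 0.602 CPM in normal, 3.11, 9.98 and 4.62 CPM in PBS, 0.788, 1.63 and 6.06 CPM in EV200, and 2.94, 2.28 and 0.858 CPM in EV400. All 9 cisplatin libraries lay above all normal libraries. Its log2 fold change from normal to PBS was 3.21 ± 0.73 (SE), a 9.24-fold rise with an adjusted p of 0.0471 by edgeR. Without PBS 2 the value was 2.61 and the adjusted p 0.155, and the call was also lost without several other single libraries. Lair1 was at 2.79, 1.38 and 1.62 CPM in normal, 2.67, 5.17 and 4.25 CPM in PBS, 2.56, 2.59 and 5.02 CPM in EV200, and 3.05, 2.84 and 1.55 CPM in EV400. PBS 1 lay just below Normal 1, and the adjusted p was 0.0952.

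Levels of different genes were compared per transcript length, on the deposited TPM scale. In the normal group Fcgr2b was the most abundant member at a mean of 55.1 TPM, followed by Csf1r at 34.9 and Tyrobp at 13.2, while Siglec1 averaged 0.144 and Cd163 0.0392 TPM. In the PBS group the order of the first 3 was kept, with Fcgr2b at 60.4, Csf1r at 46.8 and Tyrobp at 45.1 TPM, the last close behind. Mrc1 moved from rank 26 of the 34 members to rank 15, and Fcgr4 from rank 11 to rank 22. Differences in rank were not tested. In TPM the PBS libraries of Fcgr2b and Csf1r all lay above the normal libraries, whereas in CPM they overlapped. Fcgr2b was at 59.1 to 61.6 TPM in PBS and 54.6 to 55.9 TPM in normal libraries. Csf1r was at 42.2 to 55.1 TPM and 33.1 to 37.7 TPM. The level course of these 2 genes thus holds for CPM only.

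To set the cell type genes against each other within a library, CPM of single members was divided by that of Adgre1. These pairs were chosen with the values known, so the ratios are described without a test. Siglec1 per Adgre1 was 0.112 to 0.183 in normal and 0.408 to 0.471 in PBS libraries, and Mrc1 per Adgre1 was 0.541 to 0.781 in normal and 0.955 to 1.75 in PBS. Itgam per Adgre1 was 0.328 to 0.467 in normal and 0.515 to 0.744 in PBS. These 3 ranges were apart, with PBS higher. The scavenger genes Cd163 and Msr1 and the macrophage genes Cd68, Mpeg1 and Aif1 were not divided by Adgre1. The ratios therefore do not describe either group as a whole. Adgre1 was itself fitted 3.76-fold higher in PBS than in normal, so a gene that rose less gives a lower ratio. Csf1r per Adgre1 was 11.5 to 24.2 in normal and 4.23 to 7.69 in PBS libraries. Cx3cr1 per Adgre1, at 1.11 to 1.59 in normal and 0.878 to 1.09 in PBS, and Ptprc per Adgre1, at 2.39 to 3.23 and 1.67 to 1.89, were also apart with PBS lower. Of the monocyte genes only Itgam and Ccr2 were divided by Adgre1, not Ms4a6c or Cd14. Itgam was apart, while Ccr2 per Adgre1 was 1.32 to 2.23 in normal and 1.26 to 1.67 in PBS, and these overlapped. The 4 dendritic genes overlapped as well: Xcr1 per Adgre1 was 0.101 to 0.225 in normal and 0.145 to 0.183 in PBS, and Flt3 per Adgre1 was 0.116 to 0.237 and 0.122 to 0.218. Itgax per Adgre1 was 0.836 to 1.19 and 0.827 to 0.889, and Cd209a per Adgre1 was 0.119 to 0.348 and 0.26 to 0.298. Among Fc receptors, Fcgr4 per Fcgr3 was 0.606 to 0.909 in normal and 0.158 to 0.352 in PBS libraries, and Fcgr2b per Fcgr3 was 11.3 to 15.2 and 2.21 to 5.25, both apart. Here too the denominator, Fcgr3, was itself fitted 3.77-fold higher in PBS.

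**Figure D4:**
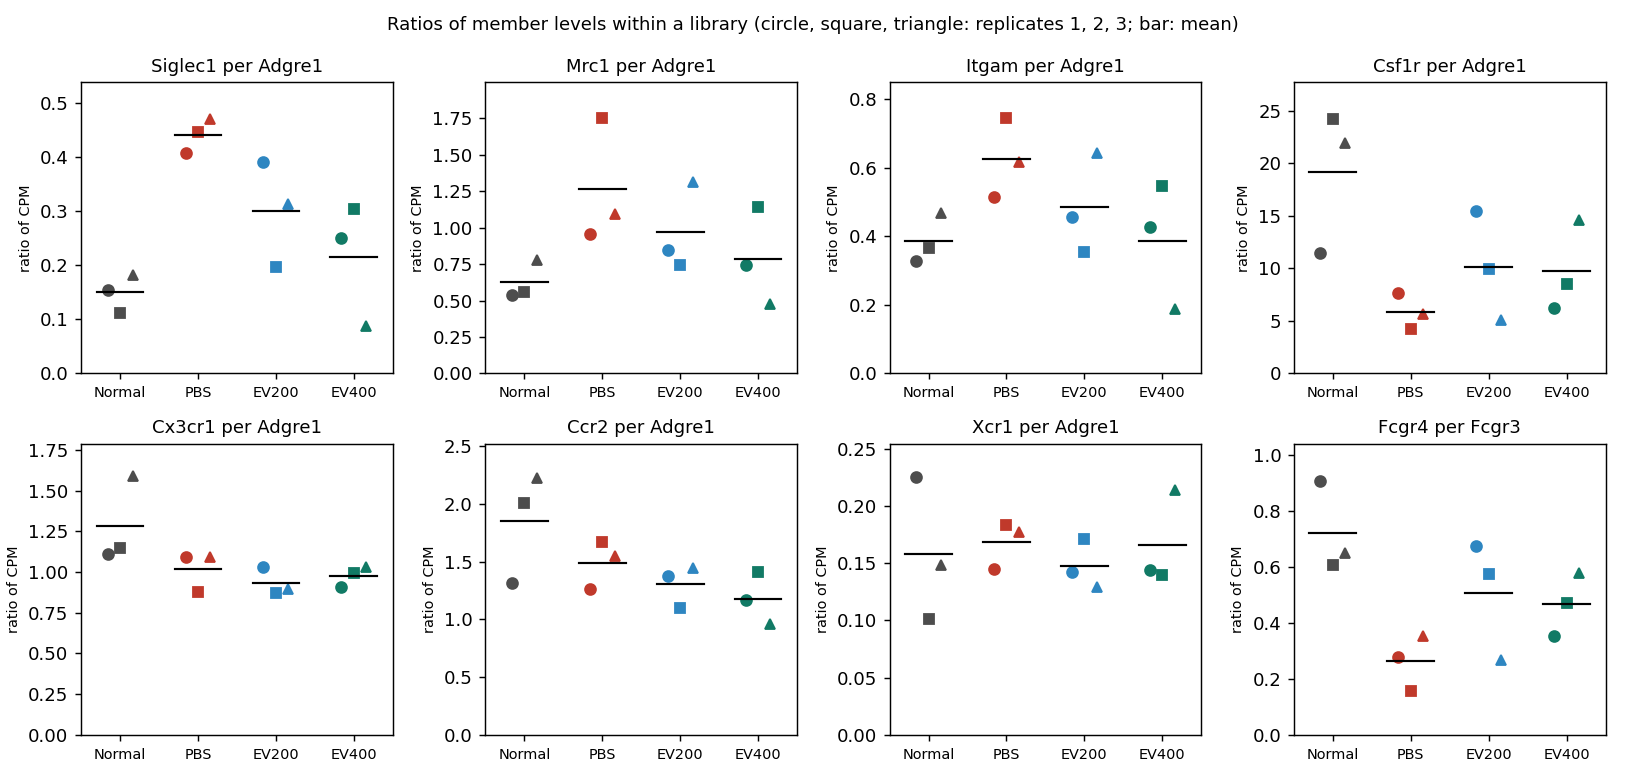
Ratios of the CPM of 2 members within each library, by group, with bars at the group means and vertical axes from 0. Siglec1, Mrc1 and Itgam per Adgre1 are higher and Csf1r and Cx3cr1 per Adgre1 and Fcgr4 per Fcgr3 lower in the 3 PBS than in the 3 normal libraries, whereas Ccr2 and Xcr1 per Adgre1 overlap.

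The vesicle groups were compared with the PBS group to ask whether myeloid genes were lower after vesicles. Both doses share the 3 PBS libraries, which also enter PBS against normal, so these comparisons are not independent. A member that reads high in the PBS libraries tends to be higher in PBS against normal and lower here. In EV200 against PBS no member was called by edgeR, none had an unadjusted p under 0.05, and no member had all EV200 libraries below all PBS libraries. Of all genes, 0.016% were called, 3.08% were lower at the unadjusted threshold and 4.94% were lower without overlap. The fitted difference was negative in 31 of 33 members, with a median of -0.61 on the log2 scale. Siglec1 had the most negative value, -1.17 with a 95% interval of -2.58 to 0.24. The median moved to -1.35 without EV200 3 and to -0.2 without PBS 2. DESeq2 also called none of the members, and limma-voom, which gave EV200 3 a weight of 0.283 and PBS 2 a weight of 0.163, called 17, all lower, and 5.71% of all genes lower.

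In EV400 against PBS all 33 tested members had negative fitted values, with a median of -1.02 against -0.02 for all genes, and none was called by edgeR. At the unadjusted threshold 17 members were lower, and in 19 all EV400 libraries lay below all PBS libraries. The same shares over all genes were 0.0801% called, 12.6% lower at the unadjusted threshold and 13.8% lower without overlap. Adjusted p values of the members ran from 0.157 for Ncf1 to 0.579 for Fcgr4. Siglec1 had the most negative difference, -1.86 with a 95% interval of -3.31 to -0.4, and Ncf1 had -1.27 with an interval of -2.17 to -0.36. By role, the medians were -1.59 for scavenger, -1.26 for monocyte, -1.08 for dendritic, -1.01 for macrophage and -0.6 for Fc receptor genes. DESeq2 called only Ncf1, and 2.7% of its 15617 genes with an adjusted p lower. Limma-voom called 6 members, Laptm5, Spi1, Cx3cr1, Siglec1, Ncf1 and Flt3, and 8.73% of all genes lower. Without EV400 3 the median was -0.75, and without PBS 2 it was -0.66.

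Markers of some other cells also had negative medians in EV400 against PBS, and none of them was called by edgeR. All 5 urothelial markers were lower at the unadjusted threshold and without overlap, with a median log2 fold change of -3.04 and summed CPM of 1.08 to 3.03 in EV400 against 4.66 to 12.8 in PBS. Fibroblast markers had a median of -1.08, with 3 of 4 lower at the unadjusted threshold, and summed to 58.8 to 130 CPM against 113 to 298 CPM. T cell markers had a median of -0.73, with 1 of 6 lower at the unadjusted threshold, and summed to 4.71 to 7.92 CPM against 8.45 to 13.1 CPM. The medians were -0.79 for 4 NK cell markers, -0.07 for 5 B cell markers and -0.02 for 4 endothelial markers. The neutrophil list went the other way, with a median of 0.96 over the 3 of 8 genes tested. Of these, 2 had positive values, while Csf3r, at -1.29, was lower at the unadjusted threshold. Its summed CPM was 1.88 to 2.15 in EV400 against 1.72 to 5.15 in PBS. In EV200 against PBS the medians were -0.36 for urothelial, -0.78 for fibroblast and -0.42 for T cell markers, with none of these lower at the unadjusted threshold. The part of these cells in the differences of the members was not tested.

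Against normal, EV200 had a median of 1.16 over members with none called by edgeR, 21 higher at the unadjusted threshold and 13 higher without overlap. Over all genes 0.0694% were called, 8.86% were higher at the unadjusted threshold and 11.9% higher without overlap. DESeq2 and limma-voom each called 1 member, Cd14, while they called 2.01% and 3.24% of genes higher. EV400 against normal had a median of 0.66, none called, 4 members higher at the unadjusted threshold (Cd68, Siglec1, Cd14 and Cd84) and 2 higher without overlap (Cd14 and Cd84). The shares of all genes were 0% called, 3.31% and 8.28%. DESeq2 called none of the members there and limma-voom 11, all higher, with 3.34% of genes called higher. The 3 normal libraries enter both comparisons. Between the doses, no member was called in EV400 against EV200 by edgeR, DESeq2 or limma-voom, none had an unadjusted p under 0.05, and 0.00534% of all genes were called. The median of -0.47 turned to 0.24 without EV200 3, and the sign changed in 28 of 33 members.

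Much of the spread was between libraries of 1 group. PBS 2 was the highest of all 12 libraries in 23 of the 33 members and EV200 3 in 8. EV400 3 was the lowest of the 9 cisplatin libraries in 30. The median over members of log2 CPM relative to the normal mean was 1.11, 2.35 and 1.55 in PBS libraries 1 to 3, 0.3, 0.54 and 1.95 in EV200, and 0.96, 0.94 and -0.25 in EV400. Among normal libraries it was 0.34, -0.3 and -0.13, and Normal 1 was the highest of its group in 24 members. PBS 1, the lowest PBS library in 31 members, was thus near EV400 1 and EV400 2, and EV200 3 lay between PBS 2 and PBS 3.

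Promoters were searched for 2 short motifs because the members moved together and because Spi1 is among them. PU.1 binds purine-rich sites around GAGGAA, and AGGAAGT is a common core of the wider ETS family. RefSeq promoters (GRCm38.p6, from 250 bases before to 50 after the start) were searched for 27 of the 34 members, as 30 windows. The 7 members left out were Spi1, Tyrobp, Adgre1, Csf1r, Siglec1, Msr1 and Cd14, although all 34 members had RefSeq coordinates. The member shares below therefore do not cover these genes, among them Csf1r, which did not pass at either threshold. Csf1r and Cd14 are the only members on their chromosome, so no promoter from it entered the member shares. The same omission is not shown for the promoters they are set against. The shares may thus rest on differently chosen sets, and their difference was not tested. GAGGAA, on either strand, was present in 15 of the 30 windows (50%) and in 28.3% of 32851 promoters of the same length. AGGAAGT was in 6 of 30 (20%) and in 9.35%, and at least 1 of these motifs, which can overlap, was in 56.7% and 32.7%. TATAAA, searched for contrast, was in 16.7% and 13.6%. These are counts of letters, not of binding sites.

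The windows of 5 members are printed, 5′ to 3′ on the gene's strand, with matches to GAGGAA and AGGAAGT on either strand in capitals. They are those of Cd68 (chr11:69666121-69666420, minus strand) and Cd84 (chr1:171839447-171839746, plus strand), both called, and of 3 neighbouring Fc receptor genes on chromosome 1 with unlike values, Fcgr3 (chr1:171059345-171059644, minus strand), Fcgr4 (chr1:171018676-171018975, plus strand) and Fcgr2b (chr1:170976022-170976321, minus strand).
Cd68 promoter: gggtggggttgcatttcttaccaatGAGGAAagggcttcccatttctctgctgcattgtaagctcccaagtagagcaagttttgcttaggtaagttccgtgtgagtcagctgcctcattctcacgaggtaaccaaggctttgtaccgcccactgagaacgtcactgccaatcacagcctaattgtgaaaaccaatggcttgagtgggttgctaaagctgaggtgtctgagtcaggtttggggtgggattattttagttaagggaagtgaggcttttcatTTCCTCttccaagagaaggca
Cd84 promoter: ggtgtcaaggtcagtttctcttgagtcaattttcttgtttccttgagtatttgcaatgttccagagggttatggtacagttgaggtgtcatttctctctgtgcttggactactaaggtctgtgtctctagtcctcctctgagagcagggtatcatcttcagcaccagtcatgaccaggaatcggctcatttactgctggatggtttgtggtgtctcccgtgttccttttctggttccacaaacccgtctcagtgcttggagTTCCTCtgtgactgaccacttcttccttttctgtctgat
Fcgr3 promoter: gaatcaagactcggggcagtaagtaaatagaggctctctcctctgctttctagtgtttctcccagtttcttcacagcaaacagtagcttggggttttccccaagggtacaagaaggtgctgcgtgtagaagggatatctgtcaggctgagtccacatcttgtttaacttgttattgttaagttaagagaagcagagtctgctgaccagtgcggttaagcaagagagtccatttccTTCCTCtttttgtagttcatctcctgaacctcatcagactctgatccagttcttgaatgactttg
Fcgr4 promoter: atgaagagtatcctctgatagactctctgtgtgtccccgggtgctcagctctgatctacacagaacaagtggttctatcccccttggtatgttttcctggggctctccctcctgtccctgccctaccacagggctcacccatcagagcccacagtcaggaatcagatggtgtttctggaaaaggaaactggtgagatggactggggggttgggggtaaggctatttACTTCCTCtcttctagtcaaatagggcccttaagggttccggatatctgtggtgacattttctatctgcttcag
Fcgr2b promoter: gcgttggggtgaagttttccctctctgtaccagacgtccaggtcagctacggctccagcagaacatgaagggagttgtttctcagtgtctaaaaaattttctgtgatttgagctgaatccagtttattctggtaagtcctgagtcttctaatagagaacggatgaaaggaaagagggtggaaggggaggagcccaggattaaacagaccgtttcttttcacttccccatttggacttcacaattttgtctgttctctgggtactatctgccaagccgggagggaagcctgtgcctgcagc
Fcgr3 and Fcgr4 both hold GAGGAA as TTCCTC, although their values differed, and Fcgr4 holds an overlapping AGGAAGT. The Fcgr2b window holds neither, nor does that of the called member Ncf1.

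Genes that act with the members were taken from 7 lists of ligands, signalling proteins, co-receptors and oxidase subunits, transcription factors, and other monocyte, resident macrophage and dendritic genes. Of 73 such genes 71 were tested, 8 were called higher in PBS than in normal, against 1.84% of all genes, and none lower, and the median log2 fold change was 0.87. At the unadjusted threshold 43 were higher and 4 lower, against 17% and 12.8% of all genes. Among 9 ligands, 1 was called: Ccl12, a ligand of Ccr2, rose by 2.66 ± 0.63 (SE) on the log2 scale with an adjusted p of 0.048. The abundant fractalkine gene Cx3cl1, ligand of Cx3cr1, was at 57.8 to 60.2 CPM in normal and 61.2 to 93.6 CPM in PBS libraries. Of 15 signalling genes, 1 rose, the adaptor gene Blnk, by 0.63 ± 0.14. None of 12 co-receptor and oxidase genes was called by edgeR, with 8 higher and 3 lower at the unadjusted threshold.

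Of 13 transcription factor genes, 2 were called in PBS against normal. Runx1, a regulator of blood cell formation, rose by 2.57 ± 0.59 (SE), and Batf3, required for type 1 dendritic cells, rose by 1.61 ± 0.38 with all PBS libraries at 0.704 to 0.837 CPM and all normal libraries at 0.219 to 0.308 CPM. Among 7 tested monocyte genes outside the members, 1 rose, F13a1, which encodes a clotting factor subunit, by 3.01 ± 0.7. Of 7 tested resident macrophage genes, 2 rose: Ms4a7 by 2.75 ± 0.55 and the complement gene C1qa by 1.77 ± 0.41. Clec10a, a lectin of type 2 dendritic cells, was the 1 gene called of 8 other dendritic genes and rose by 1.92 ± 0.44. Adjusted p values of the 8 called genes were 0.0426 to 0.0481 by edgeR. List medians on the log2 scale were 0.28 for transcription factor, 0.58 for monocyte, 1.64 for resident macrophage and 0.33 for dendritic genes. In the same order, 4, 2, 5 and 4 genes were higher at the unadjusted threshold, against 17% of all genes. Of the monocyte list 1 gene was lower at that threshold, against 12.8% of all genes. In EV200 and EV400 against PBS, none of the 71 genes was called by edgeR, and the medians were -0.35 and -0.49. At the unadjusted threshold 1 was lower and 1 higher with EV200, against 3.08% and 3.83% of all genes. With EV400, 24 were lower and 2 higher, against 12.6% and 10.9%.

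Markers of other cells moved with the members in part in PBS against normal. The neutrophil list had 3 of 8 genes tested, its defining gene Ly6g had no count in any library, and summed CPM was 1.05 to 1.87 in normal and 1.72 to 5.15 in PBS. T cell markers summed to 3.78 to 6.44 CPM in normal and 8.45 to 13.1 CPM in PBS, with 1 of 6 called, Cd3d, higher by 1.97 on the log2 scale. At the unadjusted threshold 5 of the 6 were higher, against 17% of all genes. Their median log2 fold change was 1.61, near the 1.74 of the members. B cell markers summed to 2.83 to 3.39 CPM and 3.11 to 3.61 CPM, and NK cell markers to 0.581 to 1.24 CPM and 0.974 to 1.78 CPM, with none called of 5 and 4 by edgeR and none at the unadjusted threshold. Fibroblast markers summed to 89.3 to 96.9 CPM and 113 to 298 CPM, and urothelial markers to 1.26 to 2.53 CPM and 4.66 to 12.8 CPM, with none called of 4 and 5 by edgeR and 3 and 5 higher at the unadjusted threshold. Mast cell markers summed to 0.228 to 0.267 CPM and 0.29 to 1.67 CPM, with 1 of 5 genes tested. The part of these cells in the differences of the members was not tested.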

How the data were processed

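Kidney RNA was read as paired 101-base reads after strand-specific poly(A) selection, per the labels' protocols. The submitters' processing notes name HISAT2 2.1.0, StringTie 2.1.3b, Trimmomatic 0.38 and FastQC 0.11.7, with builds GRCm38 and mm10. For the counting tool, its strand setting and the annotation, the value is not given in the sources used here. Per gene, the authors deposited whole-number read counts, used as they stand for tests and CPM, and TPM values, used only to compare levels between genes. A further 12 per-sample columns of FPKM were not used.

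All 12 libraries entered 1 quasi-likelihood fit (edgeR 4.0.16, R 4.3.3) with TMM scaling, filterByExpr on the groups and 8 residual degrees of freedom, and p values were adjusted by Benjamini-Hochberg over 18730 genes. The code was first run on simulated counts with known changes, where only the median fitted fold change had to come close to the one set. No simulated library was made to stand apart from its group, so this run does not bear on the dependence of the calls on single libraries. Of the 45777 genes, 17340 had no count in any library, and no 2 libraries had identical counts. Alternatives were DESeq2 1.42.0, its size factors, other filters, limma-voom (limma 3.58.1) with quality weights, a replicate block, the compared groups alone and leaving out libraries. The joint omission of 3 libraries was chosen after seeing the data.

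The members and lists were chosen with earlier results of these data known. Every library's value is given for members called, for the most abundant member of each role group, and for tested scavenger, monocyte and dendritic genes. Ptprc, Fcgr3 and Fcgr4 were added after their values were seen. From the other lists, up to 3 called genes with the smallest p and the most abundant gene could be named. Coordinates are from RefSeq GRCm38.p6, and exon overlaps and shared windows from GENCODE vM21.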

Additional observations from a re-analysis of the deposited data

How the results depend on the processing

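Among single members, no direction turned for PBS against normal under any alternative run, and every direction that turned was a value not called. The number of members called (4) for PBS against normal was 2 without a filter, 29 with DESeq2, 30 with limma-voom, 25 in the compared groups alone and 27 without PBS 3, EV200 3 and EV400 3, and the genes called (514) were 299, 2776, 6164, 1449 and 2319. With 1 library left out, members called ranged from 0 to 29 and genes from 0 to 2405, and the median from 1.39 to 2.03.

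Whether replicate numbers pair the libraries is not known from the labels. Correlations of same-numbered libraries' deviations from their group means ran from -0.477 to 0.521. Libraries with different numbers were not compared, so these values cannot decide it. With the replicate block, 0 members and 0 genes were called for PBS against normal, 0 genes for EV200 against PBS, 6 for EV200 against normal and 0 for EV400 against EV200.

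Genes called for EV200 against PBS (3) were 40 with DESeq2, 1649 with limma-voom, 0 in the compared groups alone and 9 without the 3 libraries, and 1 to 6 with 1 library left out. Limma-voom called 17 members, and the median was -1.42 without the 3 libraries and -1.35 to -0.2 with 1 left out. For EV400 against PBS (15) the genes were 877, 2731 and, in the compared groups alone, 2, with 0 to 65 when 1 library was left out. DESeq2 called 1 member and limma-voom 6, and the median ranged from -1.26 to -0.66. For EV200 against normal (13) the genes were 491, 1098, 28 in the compared groups alone and 1 without the 3 libraries, with 2 to 90 on leaving out 1 library. DESeq2 and limma-voom each called 1 member, and the median was 0.42 without the 3 libraries and 0.42 to 1.46 with 1 left out. For EV400 against normal (0) the genes were 29, 1481 and, without the 3 libraries, 6, with 0 throughout on leaving out 1 library. Limma-voom called 11 members and the median ranged from 0.51 to 0.96. For EV400 against EV200 (1) the genes were 13, 145, 0 in the compared groups alone and 0 without the 3 libraries. The median turned to 0.26 with limma-voom, to 0.52 without the 3 libraries and ranged from -0.75 to 0.24 with 1 left out. In all, 29 members changed sign with limma-voom and 30 without the 3 libraries in that comparison.

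In EV200 against PBS, leaving out 1 library gave ranges across 0 for Tyrobp (-1.05 to 0.06), Csf1r (-0.21 to 0.03), Ms4a6c (-1.33 to 0.17), Cd14 (-0.91 to 0.14), Fcgr2b (-0.05 to 0.09) and Fcgr4 (-0.03 to 0.26). Limma-voom gave -0.05 for Fcgr2b and -0.16 for Fcgr4. Ranges also crossed 0 for Fcgr2b in EV200 against normal (-0.1 to 0.04) and Fcgr4 in EV400 against normal (-0.15 to 0.41), and Fcgr4 in EV400 against PBS was 0.02 without the 3 libraries. The cause of these changes was not tested. Timd4 failed the filter on low counts, and Cd163 had no count in Normal 3.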
